A study of Mus musculus with 63 samples.

Results

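Kainate receptors are ionotropic glutamate receptors whose subunits are encoded by Grik1 to Grik5, and Neto1 and Neto2 encode auxiliary proteins that bind the receptor. These 7 genes were found by their symbols among the 20183 genes of the expression table, and all 7 have a row in it. Their levels are described in single neurons of layer 2/3 of the primary visual cortex (V1), the area that receives visual input first, together with the class of neuron and the level of background reads in each cell.

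The cells came from wild-type C57BL/6 mice aged 70 days, and each soma was drawn into a pipette in the living animal after calcium imaging under drifting gratings. Cells that responded to nearly every grating are called LS cells (light sensitive), and cells with hardly any response are called NS cells (not light sensitive). The table held 46 LS and 17 NS cells, and 35 LS and 12 NS cells were left when the filters that the study describes were applied to the deposited values. The study kept more LS cells than this and the same number of NS cells, so its filters were not rebuilt exactly, and which further LS cells it kept is not known here. No label tells which animal gave a cell, so each group was taken as 1 sample, no test between groups was made, and every SD is the spread between cells. Levels are FPKM (fragments scaled to transcript length and library total), a unit that can be compared between genes.

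A kainate receptor is a tetramer. GluK1, GluK2 and GluK3 (Grik1, Grik2 and Grik3) can form channels by themselves, whereas GluK4 and GluK5 (Grik4 and Grik5) bind glutamate or kainate with high affinity and need a partner of the first kind. Neto proteins slow the closure and desensitization of these channels, and in the cortex kainate receptors act on both sides of the synapse, with GluK1 known from interneurons.

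In the present cells the LS neurons held mostly Grik5, Neto2, Grik4, Neto1 and Grik2, and almost no Grik1 or Grik3. Grik1 reached more than 100 FPKM in 3 of 12 NS cells, all of them with GABA markers, and had 1 read in the 35 LS cells together. The mean of Grik1 to Grik5 summed was 23 ± 26.1 FPKM over the LS cells (SD, n = 35) against 77.1 ± 96.1 FPKM over the NS cells (SD, n = 12), a log2 ratio of -1.74. Leaving out NS_13 and NS_16, the 2 NS cells with the highest sums, a choice made after these values were seen, took this ratio to -0.94, and leaving out NS_6 as well took it to -0.31. The sum for Grik1 to Grik3 averaged 3.29 FPKM in LS cells against 61.9 FPKM in NS cells, while that for Grik4 and Grik5 was 19.7 and 15.2 FPKM. Neto1 and Neto2 summed to 18 FPKM in LS cells against 18.5 FPKM in NS cells, with a log2 ratio of -0.04, or 0.53 without NS_13 and NS_16.

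**Figure D1:**
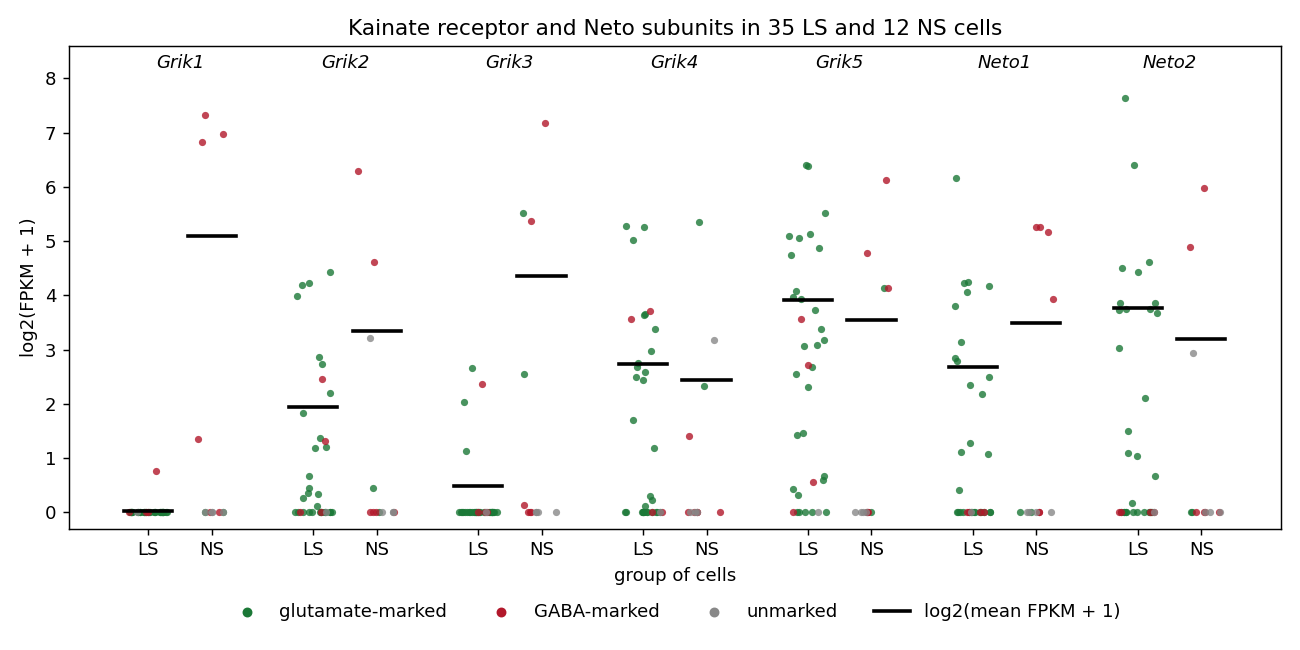
Level of each gene on the log2(FPKM + 1) scale (y axis) in the LS and NS cells (x axis), with 1 point per cell, coloured by marker class, and a bar at log2(mean FPKM + 1). Grik1 lies at 0 in 34 of 35 LS cells, and the NS means of Grik1 and Grik3 rest on few high cells, GABA-marked for Grik1 and both GABA-marked and glutamate-marked for Grik3.

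The classes of neuron were set by marker genes that are not members. A cell was called glutamate-marked where Slc17a7 (the vesicular glutamate transporter of cortical excitatory neurons) plus Neurod2 exceeded Gad1 plus Gad2 (the enzymes that make GABA), and GABA-marked where the opposite held. This gave 30 glutamate-marked, 4 GABA-marked and 1 unmarked cell among the LS cells, and 2, 6 and 4 among the NS cells. By these markers group and class therefore go together, and their shares in a difference between LS and NS cells cannot be told apart. The study classed its cells otherwise, by mapping them to published single-cell data of the visual cortex. It placed most LS and most NS cells, in similar shares, in excitatory clusters. Which cells it placed there is not known here, so the classes used here differ from those of the study. The class of NS_8 was the least clear, with 28 FPKM of the glutamate markers and 19.8 FPKM of the GABA markers. NS_16, with 375 FPKM of the GABA markers, also had 28.8 FPKM of Slc17a7, the highest value of that gene among the NS cells. Several NS cells had few reads of neuronal genes. The 5 pan-neuronal markers (Snap25, Syt1, Rbfox3, Map2 and Stmn2) summed to a median of 557 FPKM in LS cells, but only 10.7 FPKM in NS cells. Among the GABA-marked NS cells, Snap25 was 845 FPKM in NS_13, 258 in NS_12 and 80.8 in NS_16, but 1.66 in NS_6 and 0 in NS_7 and NS_11. The precursor marker Cspg4 was 270 FPKM in NS_6 and 191 in NS_7, and Mag, a myelin gene, was 123 in NS_11. The 5 microglial markers summed to a median of 263 FPKM in LS cells (range 0 to 2731) and 554 FPKM in NS cells (0 to 7877). The part of these markers in the differences described here was not tested.

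The median LS cell had 865217 reads on the listed genes (range 359259 to 2501972), and the median NS cell had 313017 (148484 to 881224). Odorant receptor genes, which have the symbols Olfr, are as a rule silent in cortical neurons, and the mean FPKM of all 806 of them was used as the background level of a cell. It was 0.256 FPKM for the median LS cell (range 0 to 3.31) and 4.53 FPKM in the median NS cell (0.126 to 24). A mean under 1 FPKM was found in 31 of 35 LS cells and in 3 of 12 NS cells, namely NS_13, NS_14 and NS_16. The part of background reads in the NS values was not tested, and the odorant receptor mean of each NS cell with a member is given once here. It was 1.62 FPKM in NS_12, 3.34 in NS_2, 5.73 in NS_9, 9.83 in NS_7, 12.1 in NS_6, 13 in NS_8 and 24 in NS_15, beside 0.148 in NS_13 and 0.237 in NS_16.

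Between the groups, a difference of at least 2-fold in mean FPKM was common. Of the 16760 genes that averaged 1 FPKM or more in LS or NS cells, 33.8% were at least 2-fold higher and 38.9% at least 2-fold lower in LS cells. Of the 7 members, all of which reached 1 FPKM in a group, 0 were at least 2-fold higher and 3 were at least 2-fold lower in LS cells. These 3 were Grik1, Grik2 and Grik3, and a share of 3 in 7 lies near that of all genes. The median log2 ratio of LS to NS cells was -0.94 over the members and -0.20 over all genes.

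Grik1 encodes GluK1 and lies on the minus strand of chromosome 16 at 87895900 to 88290265 in GRCm38 (GENCODE M21). The lowest and median values were 0 FPKM in both groups, and the highest was 0.702 FPKM among LS cells against 160 FPKM among NS cells. The mean was 0.0201 ± 0.119 FPKM over LS cells (SD, n = 35) against 33.3 ± 60.8 FPKM over NS cells (SD, n = 12). The LS value was 1 read in LS_9, a GABA-marked cell whose odorant receptor genes averaged 3.31 FPKM. The NS cells held 523 reads. The log2 ratio of pooled reads per total was -12.03, with an exact 95% interval of -17.34 to -9.55 that covers counting error only. Of the cells that passed the filters, no glutamate-marked cell had a Grik1 read, neither the 30 LS cells nor the 2 NS cells, and 0 of 32 cells allows a share of up to 10.9% (exact binomial 95% interval).

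The Grik1 reads of NS cells came from GABA-marked cells. NS_13 held 174 reads (125 FPKM), NS_16 held 259 reads (113 FPKM) and NS_6 held 89 reads (160 FPKM). NS_13 and NS_16 are the 2 of these with an odorant receptor mean under 1 FPKM. In NS_13, 0 of 806 odorant receptor genes were at or above Grik1, and in NS_16 it was 1 gene. In NS_6 the odorant receptor mean was 12.1 FPKM and 19 odorant receptor genes, or 2.36%, were as high as Grik1. NS_7 had 1 read beside an odorant receptor mean of 9.83 FPKM, and NS_11 and NS_12 had 0. The GABA-marked LS cells LS_14, LS_15 and LS_39 had 0 as well, so Grik1 was high in 3 of 6 GABA-marked NS cells and in none of 4 GABA-marked LS cells. None of the 6 unmarked or glutamate-marked NS cells that passed the filters had a read of the gene. These counts cover cells that passed the filters only. Of the GABA-marked LS cells that the filters removed, LS_8 had 98 reads of Grik1 (74.6 FPKM) and LS_1 had 0.

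**Figure D2:**
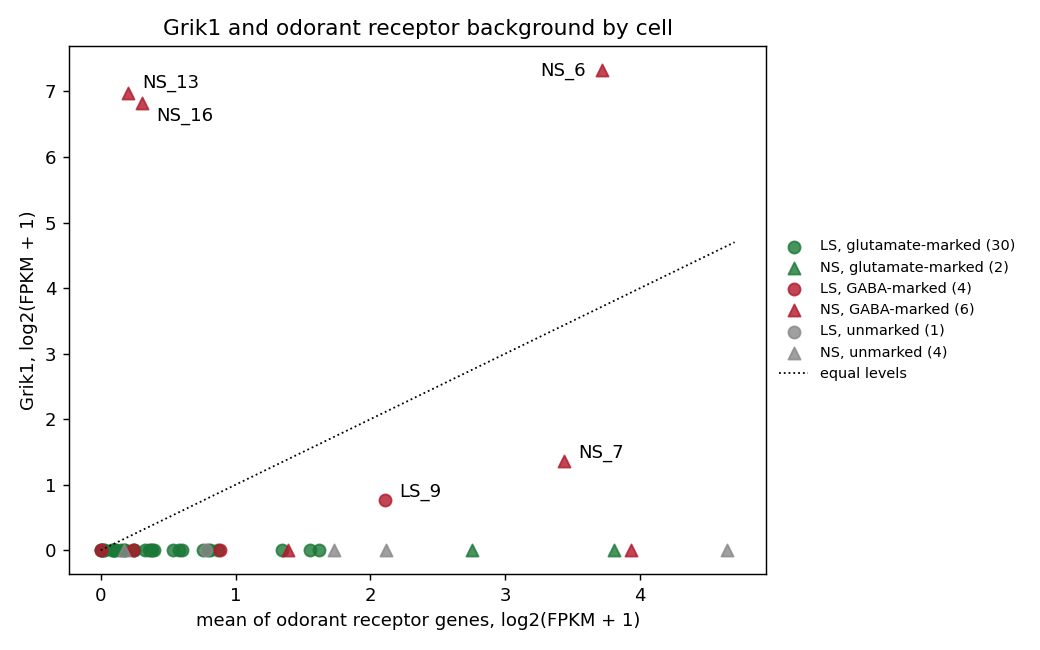
Grik1 (y axis) against the mean of the 806 odorant receptor genes of the same cell (x axis), both as log2(FPKM + 1), with circles for LS cells, triangles for NS cells, colours for marker class and a dotted line of equal levels. NS_13 and NS_16 carry over 100 FPKM of Grik1 at an odorant receptor mean under 1 FPKM, NS_6 carries it at 12.1 FPKM, and LS_9 and NS_7 lie under the line with 1 read each.

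Grik2 encodes GluK2, the main partner of GluK5 in the brain, and its gene is on chromosome 10. It had reads in 19 of 35 LS cells (54.3%, exact 95% interval 36.6% to 71.2%), with a median of 0.2 and a highest value of 20.5 FPKM. The high LS cells were glutamate-marked, with 20.5 FPKM in LS_44, 17.8 in LS_17, 17.2 in LS_35 and 14.9 in LS_7, from 161 to 226 reads. In NS cells 4 of 12 had reads and the median was 0 FPKM. The NS values were 77.5 FPKM in NS_13, 23.6 in NS_16, 8.26 in NS_15 and 0.367 in NS_8. Only the first 2 of these lay above the odorant receptor mean of their own cell, which was 24 FPKM in NS_15. The means were 2.87 ± 5.65 FPKM (SD, n = 35) and 9.14 ± 22.6 FPKM (SD, n = 12), a log2 ratio of -1.67. NS_13 supplied 70.6% of the NS sum, and without it the log2 ratio was -0.03. Among glutamate-marked cells alone the order was the opposite, with a log2 ratio of 4.10 on 30 LS and 2 NS cells.

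Grik3 encodes GluK3, a subunit of low glutamate affinity, and its gene is on chromosome 4. It had reads in 4 of 35 LS cells, with 5.37 FPKM in LS_42, 4.17 in LS_9, 3.10 in LS_18 and 1.19 in LS_4. Among NS cells the values were 143 FPKM in NS_16 (941 reads), 45 in NS_8, 40.4 in NS_7, 4.90 in NS_9 and 0.106 in NS_12. The NS_16 value is the one from a cell of low background, with 1 of 806 odorant receptor genes as high. In NS_8 and NS_7, 64 and 43 odorant receptor genes were as high as Grik3. The means were 0.396 ± 1.24 FPKM (SD, n = 35) and 19.5 ± 42.3 FPKM (SD, n = 12), a log2 ratio of -5.62, and without NS_16 the log2 ratio was -4.38. Without LS_42 it was -6.29.

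Grik4 encodes GluK4, a high-affinity subunit, and lies on chromosome 9. It had reads in 19 of 35 LS cells, with a median of 0.166 and a highest value of 37.7 FPKM in LS_28, followed by 37.5 in LS_23 and 31.5 in LS_44. In NS cells the values were 39.7 FPKM in NS_8, 8.06 in NS_2, 4.03 in NS_9 and 1.64 in NS_7, and 0 in the other 8 cells. The odorant receptor means of these 4 cells lay between 3.34 and 13 FPKM, and in NS_8, 67 odorant receptor genes were as high as Grik4. The means were 5.67 ± 10.2 FPKM (SD, n = 35) and 4.46 ± 11.4 FPKM (SD, n = 12), a log2 ratio of 0.35. NS_8 supplied 74.3% of the NS sum, and without it the log2 ratio was 2.18. The sign was the opposite in glutamate-marked cells alone, at -1.90, in cells with at least 3000 genes, at -0.57, and without NS_6, NS_13 and NS_16, at -0.07.

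Grik5 encodes GluK5, the other high-affinity subunit, and lies on chromosome 7. It was seen in more LS cells than any other member, in 28 of 35 (80.0%, interval 63.1% to 91.6%), with a median of 5.54 FPKM. The highest LS values were 83.7 FPKM in LS_7 (420 reads), 83.2 in LS_11 and 44.7 in LS_25. All 28 values lay above the odorant receptor mean of their cell. In 4 cells Grik5 lay above every odorant receptor gene, and in 21 cells under 1% of these genes were as high. In LS_4, 86 odorant receptor genes (10.7%) were as high, and LS_37 passed the mean with 1 read. In NS cells Grik5 was found in 4 of 12 (33.3%, interval 9.92% to 65.1%), with 69.2 FPKM in NS_12 (278 reads), 26.4 in NS_6, 16.6 in NS_8 and 16.6 in NS_7, and with 0 in NS_13 and NS_16. Odorant receptor genes as high as Grik5 numbered 4 in NS_12, 28 in NS_6, 87 in NS_8 and 50 in NS_7. The means were 14 ± 21.1 FPKM (SD, n = 35) and 10.7 ± 20.6 FPKM (SD, n = 12), a log2 ratio of 0.39. Pooled reads gave a log2 ratio of -0.56, GABA-marked cells alone gave -2.14, and leaving out NS_12 gave 1.37, so the sign of this ratio changed with the summary.

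The deeper LS libraries bear on how often a gene is seen. At 200000 randomly drawn reads per cell, a depth that 4 NS cells did not reach, Grik5 had reads in 71.4% of 35 LS cells (interval 53.7% to 85.4%) and 25% of 8 NS cells (3.19% to 65.1%). Grik1 had reads in 2.86% of these LS cells and 25% of these NS cells, against 2.86% and 33.3% with all reads. For each of the other 5 genes the thinned intervals of LS and NS cells overlapped, as they did for these 2 genes.

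**Figure D3:**
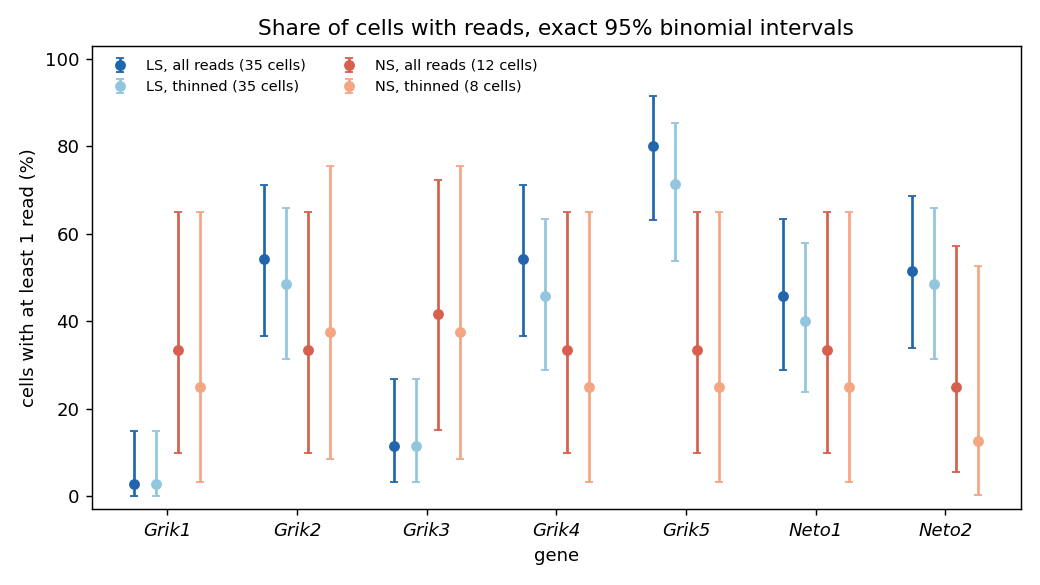
Percent of cells with at least 1 read of each gene (y axis) in LS and NS cells, with all reads or with every cell thinned to 200000 reads, and exact 95% binomial intervals as bars. Grik5 has the highest LS share, 80.0% with all reads and 71.4% after thinning, and the NS intervals are wide.

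Neto1 and Neto2 encode transmembrane proteins with CUB domains that set the gating of kainate receptors, and Neto1 also binds NMDA receptors. The Neto1 gene is on chromosome 18 and that of Neto2 on chromosome 8. Neto1 had reads in 16 of 35 LS cells, with a median of 0 and a highest value of 70.5 FPKM in LS_3 (700 reads), followed by 18.1 in LS_17. In NS cells it was 37.4 FPKM in NS_7, 37.3 in NS_12, 34.8 in NS_16 and 14.3 in NS_6, each above the odorant receptor mean of its cell, and 0 in the other 8. Odorant receptor genes as high as Neto1 numbered 43 in NS_7, 6 in NS_12, 1 in NS_16 and 34 in NS_6. The means were 5.39 ± 12.7 FPKM (SD, n = 35) and 10.3 ± 16.3 FPKM (SD, n = 12), a log2 ratio of -0.94. LS_3 supplied 37.4% of the LS sum, and without it the log2 ratio was -1.57.

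Neto2 had reads in 18 of 35 LS cells, with a median of 0.136 and a highest value of 199 FPKM in LS_37 (1132 reads), followed by 83.9 in LS_23 and 23.5 in LS_24. In NS cells it was 62.3 FPKM in NS_16 (256 reads), 28.8 in NS_7 and 6.66 in NS_2. The means were 12.6 ± 35.9 FPKM (SD, n = 35) and 8.15 ± 19 FPKM (SD, n = 12), a log2 ratio of 0.63. Without LS_37 the log2 ratio was -0.20 and without NS_16 it was 1.97, so single cells set this difference. The ranges of LS and NS cells overlapped for every member.

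In LS cells the order of mean levels was Grik5, Neto2, Grik4, Neto1, Grik2, Grik3 and Grik1. Neighbours in this order differed by less than the SD over cells of the higher one. In NS cells the order was Grik1, Grik3, Grik5, Neto1, Grik2, Neto2 and Grik4, again with neighbours closer than that SD.

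Within the LS cells, the classes of neuron were compared. The odorant receptor mean was under 1 FPKM in 27 of 30 glutamate-marked and 3 of 4 GABA-marked LS cells, with medians of 0.221 and 0.514 FPKM. The 5 pan-neuronal markers summed to medians of 613 FPKM in glutamate-marked and 215 FPKM in GABA-marked LS cells, and the 6 astrocyte markers to 53 and 215 FPKM (ranges 0 to 1049 and 100 to 489), and the part of these in the results was not tested. Of the cells that passed the filters, Neto reads were found in 25 of 30 glutamate-marked LS cells (83.3%, interval 65.3% to 94.4%). They were found in 0 of 4 GABA-marked LS cells (interval up to 60.2%), but the GABA-marked LS cells that the filters removed, LS_1 and LS_8, had such reads. With a floor of 3 reads over the GABA-marked group, Neto1 was at least 47.6-fold and Neto2 at least 113-fold higher per pooled read in glutamate-marked cells. Grik5 had a mean of 15.8 ± 22.3 FPKM in glutamate-marked LS cells (SD, n = 30), and the 4 GABA-marked cells had 10.9, 5.54, 0.480 and 0 FPKM, a mean of 4.23 FPKM. Grik2 had means of 3.15 and 1.5 FPKM and Grik4 had 5.85 and 5.78 FPKM. The sum of Grik1 to Grik5 was 25.1 ± 27.2 FPKM in glutamate-marked cells (SD, n = 30) and 12.7 ± 14.2 FPKM in GABA-marked cells (SD, n = 4).

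Over all 14454 genes at 1 FPKM or more in either class, 23.2% were at least 2-fold higher and 46.2% at least 2-fold lower in GABA-marked than in glutamate-marked LS cells. Of the 6 members tested, 1 (Grik3) was higher and 4 (Grik2, Grik5, Neto1 and Neto2) were lower. The Grik3 value of the GABA-marked class came from LS_9 alone, at 4.17 FPKM beside an odorant receptor mean of 3.31 FPKM. Without LS_9, the log2 ratio of Grik1 to Grik5 summed, GABA-marked to glutamate-marked, went from -0.98 to -2.03.

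The 10 GABA-marked cells differed from each other in their subunits. NS_16 carried 9164 FPKM of Sst, the peptide of somatostatin interneurons, and had Grik3, Grik1, Neto2, Neto1 and Grik2 without Grik4 or Grik5. It also held 62 reads (28.8 FPKM) of the glutamate marker Slc17a7. NS_13 had the highest Gad1, 754 FPKM, with 53.1 FPKM of Lamp5, a marker of neurogliaform interneurons, and it had Grik1 and Grik2 and no other member. NS_12 carried 6336 FPKM of Npy, the neuropeptide Y gene, with 109 FPKM of Lamp5, and it had Grik5 and Neto1 with 1 read of Grik3. LS_15 carried 5266 FPKM of Vip, the vasoactive intestinal peptide gene of disinhibitory interneurons, and its sole member was Grik5 at 5.54 FPKM. LS_39 carried 211 FPKM of Vip but no Snap25, and had no member. LS_14, with 284 FPKM of Npy, had 10.9 FPKM of Grik4, 1.48 of Grik2 and 0.480 of Grik5. LS_9 had each of the Grik genes, with 12.2 FPKM of Grik4 at the top.

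**Figure D4:**
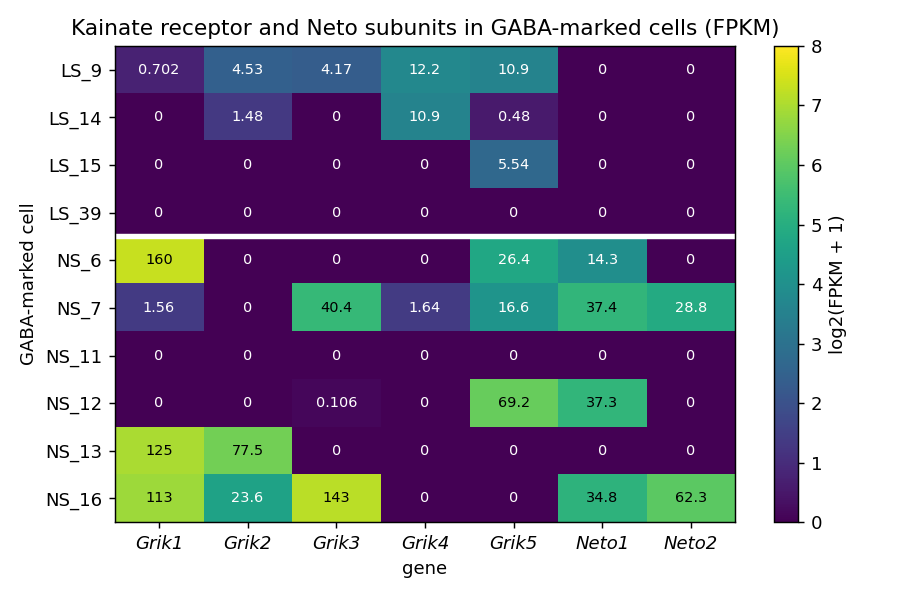
FPKM of the 7 genes (columns) in the 4 LS and 6 NS cells with GABA markers (rows), written in each field and coloured by log2(FPKM + 1). Grik1 is above 100 FPKM in NS_6, NS_13 and NS_16, no LS cell has a Neto value above 0, and LS_39 and NS_11 have no member at all.

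Between these cells, the sum of Grik1 to Grik5 had a mean of 133 ± 106 FPKM in the 6 NS cells and 12.7 ± 14.2 FPKM in the 4 LS cells (SD), a log2 ratio of NS to LS of 3.38. Of 13402 genes, 42.5% were at least 2-fold higher and 42% at least 2-fold lower in the GABA-marked NS cells. Among the members 6 of 7 were higher and 1, Grik4, was lower. The median odorant receptor mean was 5.72 FPKM in these NS cells and 0.514 FPKM in these LS cells. In the 2 NS and 3 LS cells with a mean under 1 FPKM the direction of Grik5 was the opposite, with 0 reads in the NS cells and 38 in the LS cells. Over all 6 NS and 4 LS cells, Grik4 held 2 reads in the NS cells and 139 in the LS cells. This gave a pooled log2 ratio of -5.43 (interval -8.49 to -3.55). The median log2 ratio over the same 6 NS and 4 LS cells was 4.87 for the members and 0.01 for all genes. The peptides of the 2 groups differed in part. Vip was found in LS cells only and Sst in NS_16 only, while Npy was found in both groups. Npy was 284 FPKM in LS_14, 6336 FPKM in NS_12, 179 FPKM in NS_6 and 164 FPKM in NS_16. NS_7, NS_11 and NS_13 had no Sst, Vip or Npy. Response and interneuron type therefore cannot be told apart here.

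With LS and NS cells joined, 10 GABA-marked cells were set against 32 glutamate-marked cells. These classes also differ in group, with 4 LS and 6 NS cells in the first and 30 LS and 2 NS cells in the second. Class and group therefore cannot be told apart in this comparison. Of the 524 Grik1 reads in GABA-marked cells, 523 came from NS cells. Per pooled read, Grik1 was at least 878-fold higher in the GABA-marked cells, with a floor of 3 reads over the glutamate-marked group. Grik3 averaged 18.8 FPKM in GABA-marked and 1.86 FPKM in glutamate-marked cells, and NS_16 supplied 76.2% of the first and NS_8 75.5% of the second. Grik4 averaged 2.47 and 6.85 FPKM and Grik5 averaged 12.9 and 15.4 FPKM. Of 16390 genes, 29% were at least 2-fold higher and 39.6% at least 2-fold lower in the GABA-marked cells. Of the 7 members, Grik1, Grik2, Grik3 and Neto1 were higher and Grik4 was lower. NS_13 supplied 72.3% of the Grik2 sum of the GABA-marked cells. Within LS cells alone Grik3 was also higher in GABA-marked cells. Grik2 was lower there, at 1.5 against 3.15 FPKM, and Neto1 had 0 reads.

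Combinations of subunits were then counted, since Grik4 and Grik5 products need a partner. A read of Grik1, Grik2 or Grik3 was present in 21 of 35 LS cells and a read of Grik4 or Grik5 in 31. Both kinds were present in 20 cells, Grik4 or Grik5 alone in 11, Grik1 to Grik3 alone in 1 and neither in 3. In NS cells the counts were 5 with both, 1 with Grik4 or Grik5 alone, 3 with Grik1 to Grik3 alone and 3 with neither. Transcripts of a gene may be present in a cell that gave no read of it, so a missing partner is a statement about reads. A Neto gene was read in 25 LS cells, of which 24 had a Grik read, and in 5 NS cells, all with a Grik read. No member had a read in LS_39, LS_43, NS_4, NS_11 and NS_14.

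**Figure D5:**
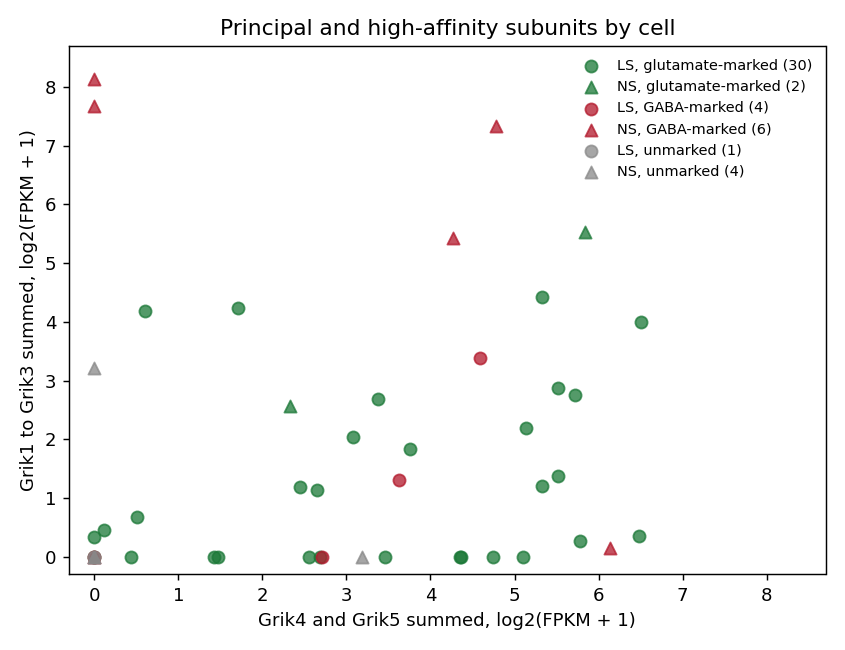
Sum of Grik1, Grik2 and Grik3 (y axis) against the sum of Grik4 and Grik5 (x axis), both as log2(FPKM + 1), for each LS cell (circles) and NS cell (triangles), coloured by marker class. NS_13 and NS_16 lie at the top left with no Grik4 or Grik5, and the glutamate-marked LS cells spread along the x axis.

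The comparison was repeated in cells with an odorant receptor mean under 1 FPKM, 31 LS cells and the NS cells NS_13, NS_14 and NS_16. Of 13015 genes, 68.6% were at least 2-fold higher and 17.1% at least 2-fold lower in these LS cells. Grik1 had 0 reads in the 31 LS cells and 433 in the 3 NS cells. Grik4 and Grik5 had 1186 and 1643 reads in the LS cells and 0 in the NS cells. In all, 2 members were higher (Grik4 and Grik5) and 3 were lower (Grik1, Grik2 and Grik3) in LS cells. NS_14 had no read of the 4 genes that set the classes and no member, but it had 353 FPKM of Pvalb and 101 FPKM of Lhx6, both interneuron markers, and 245 FPKM of the astrocyte marker Aldh1l1.

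Against the background of the same cell, a member above the odorant receptor mean was found most often for Grik5, in 28 LS and 4 NS cells. The counts were 17 LS and 2 NS cells for Grik2, 16 and 2 for Grik4, 15 and 4 for Neto1, and 16 and 3 for Neto2. For Grik3 they were 3 and 3, and for Grik1 they were 0 and 3. A single read can pass this mean, as Grik5 did in LS_37 at 0.258 FPKM beside 0.186 FPKM. Over the LS cells, Grik4 and Grik5 followed the background more closely than the other members tested. Spearman's rank correlation with the odorant receptor mean was 0.30 for Grik4 and 0.27 for Grik5, and 0.43 and 0.37 in the 30 glutamate-marked LS cells. For Grik2, Neto1 and Neto2 it lay between -0.22 and 0.23 in both sets. For NS cells no such value was formed. On the log2(FPKM + 1) scale, Pearson's r with the odorant receptor mean over the 35 LS cells was 0.13 for Grik2, 0.22 for Grik4, 0.28 for Grik5, -0.19 for Neto1 and -0.23 for Neto2. With the number of genes above 1 FPKM in a cell it was 0.39 for Grik4 and 0.38 for Grik5. Between members it ran from -0.04 for Grik4 with Neto2 to 0.40 for Grik2 with Neto1. These values describe cells that share no library but differ in depth and background.

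The search for like genes covered 6122 genes detected in 50% or more of the 35 LS cells, and the 3 with the highest Pearson's r of log2(FPKM + 1) were listed for the 4 members seen in at least that share. They were Gtf2ird1 (r = 0.68), Vps54 (0.59) and Cecr5 (0.58) for Grik2. For Grik4 they were Cops7b (0.64), Vps4b (0.61) and R3hdm2 (0.61), and for Grik5 they were Trrap (0.69), Gmeb1 (0.64) and Apba2 (0.64). For Neto2 they were Atrnl1, Ttll7 and Creg2, at 0.59 each. A search over so many genes raises the highest values by itself.

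The other ionotropic glutamate receptor genes gave a mixed picture. Of the 12 of 13 that reached 1 FPKM, 3 were at least 2-fold higher and 4 at least 2-fold lower in LS than in NS cells, with a median log2 ratio of -0.25. The AMPA receptor genes Gria2 and Gria3 averaged 28.9 and 22.8 FPKM in LS cells against 5.09 and 4.65 FPKM in NS cells. Gria1 averaged 24.4 FPKM in LS cells against 55.6 FPKM in NS cells, and NS_16 supplied 93.9% of the second sum. Among NMDA receptor genes, Grin2b averaged 19.4 and 6.25 FPKM, and Grin1, the obligatory subunit, 40.3 and 22.7 FPKM. In LS cells Gria2 and Grin1 had reads in 34 of 35 cells each, against 28 for Grik5.

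Of 8 genes for kainate receptor partners, 3 were at least 2-fold higher in LS cells (Dlg1, Dlg3 and C1ql3) and 3 at least 2-fold lower (Dlg4, Grip1 and Klhl24), with a median log2 ratio of -0.48. Dlg4 encodes the scaffold PSD-95 and averaged 16.7 FPKM in LS cells against 56.3 FPKM in NS cells. C1ql3, a secreted protein that binds kainate receptors at some synapses, had reads in 14 of 35 LS cells and in 0 of 12 NS cells. Klhl24, which encodes a protein that interacts with GluK2, averaged 4.86 and 21.5 FPKM, and NS_16 supplied 73.3% of the NS sum.

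Among the 16 cells that the filters removed here, 4 had Grik1 above 1 FPKM, and they lie outside the means above. LS_2 had 310 FPKM of Grik1 from a library of 854 genes with 7037 FPKM of the astrocyte gene Gfap and none of the class markers. LS_8, with GABA markers and reads of all 3 oligodendrocyte score genes, had 74.6 FPKM. NS_17, with reads of both marker classes and 680 FPKM of Sst, had 28 reads (9.56 FPKM) beside an odorant receptor mean of 1.16 FPKM. By the rule used here it was glutamate-marked, with 167 FPKM of the glutamate markers against 162 FPKM of the GABA markers. Other removed glutamate-marked cells had 6 reads (2.49 FPKM) in LS_5 and 1 read in NS_3, beside odorant receptor means of 3.05 and 4.78 FPKM. The removed GABA-marked LS cells had Neto reads, namely 8 of Neto1 and 14 of Neto2 in LS_8, and 5 of Neto1 in LS_1. The absence of Grik1 from glutamate-marked cells and the value of 878-fold therefore hold for the cells that passed the filters only. So do the absence of Neto reads from GABA-marked LS cells and the fold values given there for Neto1 and Neto2. With all 63 cells, the log2 ratio of Grik1 in LS to NS cells was -1.51 in place of -10.70. High Grik1 was thus present in cells labelled LS, though in none that passed the filters.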

How the data were processed

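Single somata were amplified by Smart-seq2, a full-length method without molecular identifiers. Per the labels and the methods of the study, reads were aligned to GRCm38 with STAR 2.5.3a and counted with featureCounts, and the authors deposited FPKM values for 20183 genes in 63 cells. Whether counting used strand is not given in the sources used here. Exons of Neto1, Neto2 and Grik4 overlap those of AC113599.1, Mir8109 and Gm24420, whose reads may not be separable. The members and gene lists were chosen with earlier results of these data known. Of the columns of values, 0 stayed unused.

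The filters followed the study's description, namely no low cDNA (LS_1 and NS_1), at least 1000 genes above 1 FPKM, a mitochondrial share of at most 25%, and products of astrocyte, oligodendrocyte and mixed neuronal markers equal to 0. They left fewer LS cells than the study kept, and the astrocyte product removed 10 cells, so they do not match its own filtering cell by cell. Whole reads were recovered from the steps of FPKM, and 99.996% of values under 200 reads were whole to 0.02 reads, beside an allowance for rounding. In simulated data 99.9% of reads were recovered. FPKM was averaged over cells and groups were compared by log2 ratios of means. No test between groups was made, since each group is 1 sample. Shares have exact binomial and read ratios exact conditional 95% intervals, which cover counting error only. Members were named by symbol, fixed lists by name, and like genes by the 3 highest correlations. Alternatives were other cells, scalings, summaries and thresholds, and each cell left out in turn. The software was numpy 2.4.6, scipy 1.17.1 and pandas 2.3.3 under Python 3.11.15.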

Additional observations from a re-analysis of the deposited data

Results flagged for a closer look

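Each gene and the sums over Grik and Neto genes were examined in the 4 GABA-marked LS cells and the 6 GABA-marked NS cells. Neto1, Neto2 and their sum were at 0 in all of these LS cells and were left out there. Of the 15 groups of values left, 5 had a cell farther from the rest than Dixon's 95% critical value allows. Chance alone marks about 1 group in 20 where values vary freely. That rate does not hold for groups filled with 0, and the 2 values of LS_9 and that of NS_7 are marked because every other cell was at 0. In the 4 LS cells, LS_9 stood apart with 0.702 FPKM of Grik1 (1 read) and 4.17 FPKM of Grik3, where the other 3 cells were at 0. Its odorant receptor genes averaged 3.31 FPKM. In the 6 NS cells, NS_13 stood apart with 77.5 FPKM of Grik2 and NS_16 with 143 FPKM of Grik3, both at odorant receptor means under 1 FPKM. NS_7 stood apart with 1.64 FPKM of Grik4, which is 2 reads beside an odorant receptor mean of 9.83 FPKM.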

How the results depend on the processing

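Values are log2 ratios of LS to NS cells unless named otherwise, and the cause of a change was not tested. For Grik1 to Grik5 summed the ratio stayed below 0 under every alternative run. It was -1.03 in all 63 cells, -1.67 with the 2 cells of low cDNA kept, -2.83 in cells with an odorant receptor mean under 1 FPKM, -2.14 in cells with at least 3000 genes, -1.22 with medians, -0.82 and -0.48 as means of log2(FPKM + 1) and log2(FPKM + 0.1), -2.16 with pooled reads, -1.94 after scaling to nuclear FPKM, -1.64 after subtracting the odorant receptor mean, -1.14 in glutamate-marked cells and -3.38 in GABA-marked cells. With the settings chosen after seeing the data, it was -0.94 without NS_13 and NS_16 and -0.31 without NS_6 too. Leaving out each cell in turn gave -1.90 to -1.35. Neto1 and Neto2 summed had no stable sign, with -0.70 at low background, -0.69 at 3000 genes, -0.35 with pooled reads, 0.33 and 1.05 on the 2 log scales, 0.20 after subtraction, 0.53 without NS_13 and NS_16, 0.55 without NS_6 too, and -0.57 (without LS_37) to 0.67 (without NS_16) over single cells left out. Grik2 turned to 0.23 on the log2(FPKM + 0.1) scale, 4.10 in glutamate-marked cells, 1.73 without NS_13 and NS_16 and 1.58 without NS_6 too. Neto2 turned to -0.59 at low background and -0.29 at 3000 genes. In the main setting, 33.8% of all genes tested were at least 2-fold higher and 38.9% at least 2-fold lower in LS cells. These shares were 68.6% and 17.1% at low background and 42% and 42.5% in GABA-marked cells, and were not formed for other settings. With medians every NS value was 0, and the LS medians of Grik2, Grik4 and Neto2 were 0.2, 0.166 and 0.136 FPKM. The count of members at least 2-fold lower in LS cells was 0 with medians and 6 in GABA-marked cells, and ran from 3 to 4 with a cell left out. The count at least 2-fold higher was 4 with medians, 2 at low background, 1 and 3 on the 2 log scales, 1 after subtraction, 3 in glutamate-marked cells, 1 in GABA-marked cells, 2 without NS_13 and NS_16, and 2 without NS_6 too, and ran from 0 to 1 with a cell left out, with 1 without NS_7, NS_8, NS_12 or NS_16.

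For GABA-marked to glutamate-marked LS cells, Grik1 to Grik5 summed gave 0.043 in all 63 cells, -1.30 with low cDNA kept, -2.05 at low background, -0.57 at 3000 genes, -1.33 on the log2(FPKM + 0.1) scale and -1.40 after subtraction. It ran from -2.03 (without LS_9) to -0.57 (without LS_39) with a cell left out. Ratios with a group at 0 were not formed. No paired analysis was possible because the numbers in the labels only count cells and no test was made. Depth limits the NS values, since 4 of 12 NS cells held under 200000 reads.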
